A study of Mus musculus with 8 samples.

Results

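The p53 gene Trp53 and 9 genes listed as p53 targets were followed in the gut epithelium of mice with and without the RNA helicase DDX5. DDX5 has been reported as a p53 coactivator. The 10 genes (Trp53, Mdm2, Cdkn1a, Ccng1, Gadd45a, Gadd45g, Bax, Bbc3, Phlda3 and Trp53inp1) were taken by symbol from both deposited gene tables. They were chosen with earlier results of these data known. Each table held all 10, among 26820 genes that both tables list, and all 10 had enough counts to be tested in every comparison. WTIEC mice (Ddx5 +/+ Villin1Cre+) were the controls of DDX5ΔIEC mice (Ddx5 fl/fl Villin1Cre+), all labelled as 8 weeks old. Both groups thus carried Cre, under the Villin1 promoter that is active in gut epithelial cells. From 2 mice of each genotype, described as pairs of cohoused littermates, the colon and the ileum were each sampled once, which gave 8 RNAseq libraries with 2 per group. The cells were those that EDTA washes release from the gut wall (IECs), with no sort described for these libraries, so cells without Cre can be among them.

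Counts on genes summed to 17385217 and 20393824 in WTIEC colon replicates 1 and 2 and to 16883951 and 19437275 in DDX5ΔIEC colon replicates 1 and 2. Ileum totals were 22984283 and 14878989 in WTIEC and 11768205 and 11571061 in DDX5ΔIEC. The libraries carried the markers of their tissue. Summed over 4 colonocyte genes, the level was 4149 to 5423 CPM in the colon, where the carbonic anhydrase gene Car1 was the most abundant of them, and 115 to 157 CPM in the ileum. CPM are a library's counts scaled to a total of 1000000, with TMM factors set within a tissue. Over 4 ileal enterocyte genes, the sum was 1947 to 3822 CPM in the ileum, led by the bile acid carrier gene Fabp6, and 23.1 to 105 CPM in the colon, where Apoa4 had no count in 1 library. Ileum DDX5ΔIEC replicate 2 stood apart from the other libraries, with 19.5% of its counts (95% Wilson interval 19.47% to 19.51%, for counting error only) on Gm10800, Gm10801 and Gm21738, which are 3 repeat-like genes. In ileum DDX5ΔIEC replicate 1 their share was 0.226% (0.2232% to 0.2286%). The WTIEC ileum libraries had 4.04% (4.037% to 4.053%) and 3.93% (3.917% to 3.937%), and no colon library had more than 0.261% (0.2587% to 0.2632%). Ileum results that rest on DDX5ΔIEC replicate 2 are given also without it.

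p53 is a transcription factor that MDM2, a ubiquitin ligase, keeps at a low level until DNA damage or other stress releases it. It then binds DNA at paired copies of a consensus decamer and raises genes that stop the cell cycle, start cell death or repair DNA, and Mdm2 is itself such a target, which closes a feedback loop. In the gut, p53 and its target p21 are best known from the response of crypt cells to radiation. DDX5 binds p53 and has been reported to help it raise the p21 gene.

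Ddx5 separated the genotypes in both tissues. In the colon its RNA stood at 852 and 785 CPM in WTIEC replicates 1 and 2 and at 404 and 390 CPM in DDX5ΔIEC replicates 1 and 2. Ileum values were 633 and 635 CPM in WTIEC and 308 and 296 CPM in DDX5ΔIEC. Both DDX5ΔIEC libraries lay below both WTIEC libraries in each tissue, with a log2 fold change of −1.04 (SE 0.09) in the colon and −1.07 (SE 0.18) in the ileum. Counts over whole genes do not separate deleted exons from kept ones, and RNA of cells without Cre is part of the sum.

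In the colon of DDX5ΔIEC mice, Gadd45g, a stress-induced gene whose protein binds stress kinases and cell cycle kinases, was at 0.322 times its WTIEC level. Phlda3, which codes for an inhibitor of the survival kinase AKT, was at 4.41 times its WTIEC level on low counts. The cyclin G1 gene Ccng1 and Trp53inp1, a gene for a p53-inducible nuclear protein that also acts in autophagy, were at 1.44 and 1.48 times theirs. Trp53 and Mdm2 showed differences smaller than their standard errors (log2 fold changes of 0.07, SE 0.14, and −0.09, SE 0.10). Of the 10 genes, 8 had a positive log2 fold change and 2 a negative one.

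The median log2 fold change of the 10 genes in the colon was 0.41, beside −0.00 over all 15362 genes tested, of which 49.9% were positive. The study's criterion for DDX5-dependent transcripts is an unadjusted p under 0.05 and a log2 fold change of 0.5 or more, up or down. Here it was limited to protein-coding genes, a limit that the study states for its pathway analysis, with a minimal count of 10. The study used DESeq2 for it, and here it was applied to the p of edgeR's quasi-likelihood test, which passes 834 genes in the colon against 463 by DESeq2. By it, 3 of the 10 genes were higher in DDX5ΔIEC (Phlda3, Trp53inp1 and Ccng1), where 2.64% of 12557 protein-coding genes passed, and 1 was lower (Gadd45g), where 4.01% passed. With DESeq2 4 of the 10 genes passed as well, and with each library left out in turn 2 to 8 did (2 without WTIEC replicate 2 and 8 without DDX5ΔIEC replicate 2). After adjustment over all genes (Benjamini-Hochberg) edgeR's quasi-likelihood test called 0 of the 10 genes, and it called 0% of all genes in the colon. At an unadjusted p under 0.05, 1836 genes passed that test, 6 of the 10 among them, and DESeq2 called 117 genes after adjustment, Gadd45g among them. Both DDX5ΔIEC libraries were above both WTIEC libraries for 6 of the 10 genes (22.5% of all genes tested) and below them for 1 (22.0% of all genes). An exact permutation test of 2 libraries against 2 cannot give a two-sided p below 0.333, so no such test is given.

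**Figure D1:**
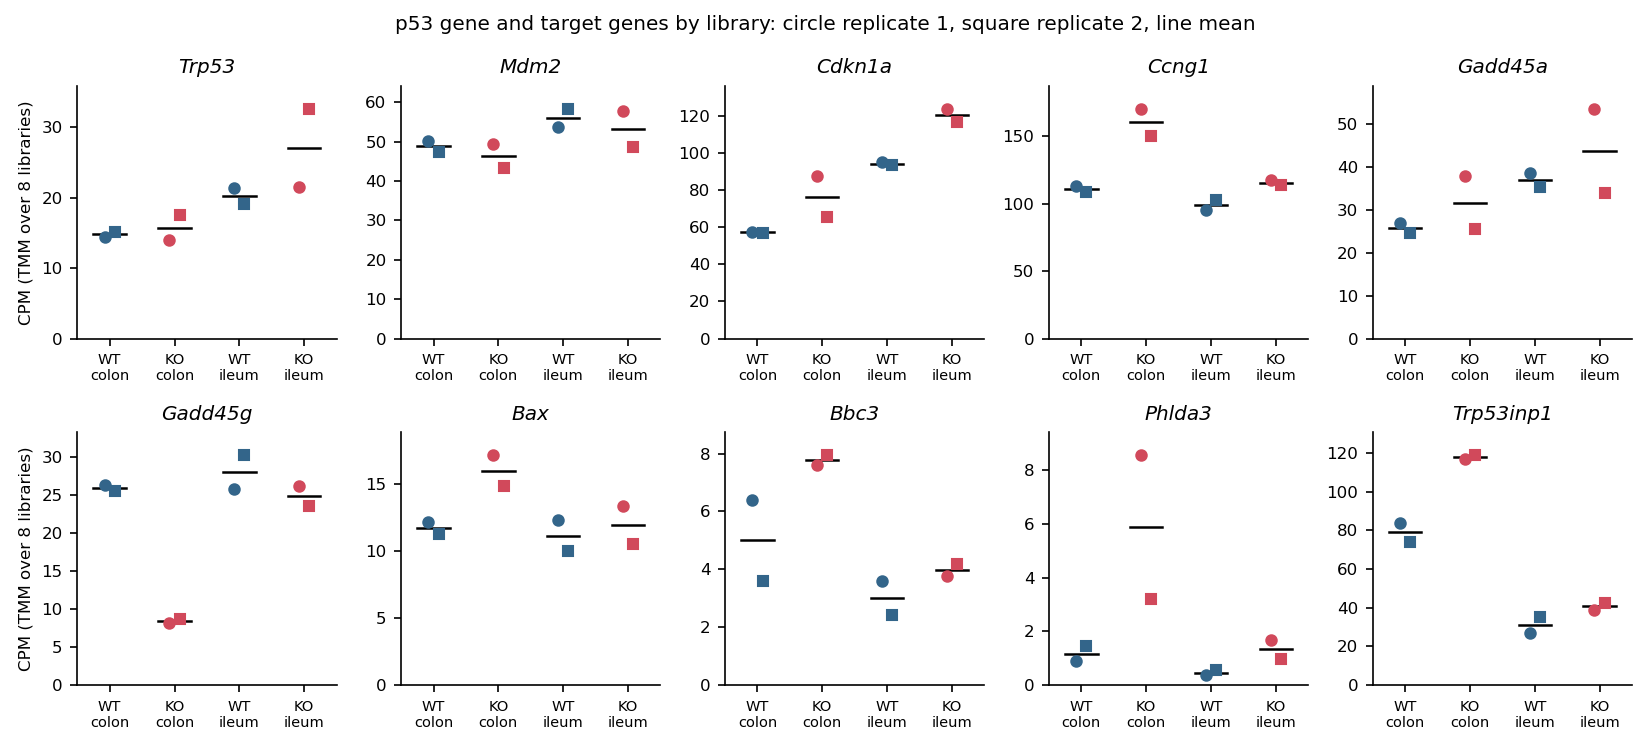
Level of each of the 10 genes in every library, in CPM scaled by TMM over all 8 libraries (linear axis from 0); WTIEC (WT) is blue and DDX5ΔIEC (KO) red, circles are replicate 1, squares replicate 2, and lines the mean of 2 libraries. In the colon, Gadd45g of DDX5ΔIEC lies far below WTIEC and Phlda3, Ccng1 and Trp53inp1 lie above it, while Trp53, Mdm2 and Gadd45a overlap between the genotypes.

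Trp53 and Mdm2 form the regulator pair. For Trp53, the colon level was 16.0 and 16.8 CPM in WTIEC and 15.3 and 19.3 CPM in DDX5ΔIEC. Mdm2 RNA was 55.5 and 52.7 CPM in WTIEC and 54.2 and 47.5 CPM in DDX5ΔIEC. For both genes the genotypes overlapped, and the sign for Trp53 turned to −0.10 without DDX5ΔIEC replicate 2. A p53 transcript level says nothing of p53 protein, which is set mainly by its degradation.

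Among the growth arrest genes, Gadd45g (ENSMUSG00000021453.2, chr13:51846678-51848468, + strand, GRCm38) differed the most. It had 29.1 and 28.3 CPM in WTIEC colon (501 and 579 counts) and 8.99 and 9.47 CPM in DDX5ΔIEC colon (148 and 189 counts). Both DDX5ΔIEC libraries were low, and the replicates of a genotype lay close together: 28.7 ± 0.525 CPM in WTIEC and 9.23 ± 0.343 CPM in DDX5ΔIEC (SD, n = 2). The log2 fold change was −1.63 (SE 0.12), with −1.69 in the pair of replicates 1 and −1.58 in the pair of replicates 2. Its adjusted p by edgeR's quasi-likelihood test was 0.0741, just outside the threshold. DESeq2 gave 2.53e-06, edgeR without the replicate block 0.0322 and edgeR over all 8 libraries 0.0180, within a range of 2.72e-17 to 0.336 over all alternatives, and the log2 fold change ran from −1.60 to −1.68 when each library was left out in turn.

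Gadd45a, the family member most closely tied to p53 and to DNA repair, took another course. Its RNA was 29.9 and 27.3 CPM in WTIEC colon and 41.6 and 28.0 CPM in DDX5ΔIEC colon. DDX5ΔIEC replicate 1 was high and replicate 2 lay between the WTIEC libraries, so the groups overlapped. The log2 fold change of 0.26 (0.48 and 0.03 in the pairs) was −0.03 without DDX5ΔIEC replicate 1, in a fit that also drops the replicate block. Within each library, which needs no scaling, Gadd45g had 0.973 and 1.04 counts for each Gadd45a count in WTIEC colon and 0.216 and 0.339 in DDX5ΔIEC colon. The balance of the 2 family members was thus lower in both DDX5ΔIEC libraries. Part of the Gadd45a exons (19.1%) overlaps E230016M11Rik on the other strand, which itself had 31 to 71 counts in the colon libraries against 515 to 685 for Gadd45a, and whether the counting kept strands apart is not stated. Bax shares 12.2% of its exon bases with Gm45808 on the same strand, and Cdkn1a 7.68% with AC167363.2 on the other.

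Cdkn1a codes for p21, the inhibitor of cyclin-dependent kinases through which p53 halts the cell cycle. Its colon level was 63.7 and 63.6 CPM in WTIEC and 96.3 and 72.3 CPM in DDX5ΔIEC. Both DDX5ΔIEC libraries were high, replicate 1 more so, which gave a log2 fold change of 0.39 (SE 0.13; 0.18 without DDX5ΔIEC replicate 1) and an adjusted p of 0.369 by edgeR's quasi-likelihood test. Ccng1 (ENSMUSG00000020326.7, chr11:40748552-40755311, − strand), whose protein brings a phosphatase to MDM2, had 125 and 121 CPM in WTIEC colon and 187 and 166 CPM in DDX5ΔIEC colon. The groups lay apart by more than their spread, at 123 ± 3.01 against 177 ± 15.5 CPM (SD, n = 2). Its log2 fold change was 0.52 (SE 0.08; 0.59 and 0.46 in the pairs), with an adjusted p of 0.238 by edgeR's quasi-likelihood test.

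The cell death genes were higher in both DDX5ΔIEC colon libraries without passing the study's criterion. Bax, whose protein opens the outer mitochondrial membrane, had 13.5 and 12.5 CPM in WTIEC and 18.8 and 16.3 CPM in DDX5ΔIEC. That made a log2 fold change of 0.43 (SE 0.13). Bbc3 codes for PUMA, which sets BAX free by binding its inhibitors, and had 7.08 and 4.01 CPM in WTIEC and 8.38 and 8.72 CPM in DDX5ΔIEC. Here the WTIEC replicates differed more than the genotypes did in the first pair, with pair values of 0.24 and 1.12 and a log2 fold change of 0.68 (SE 0.27; 0.27 to 1.09 with a library left out).

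Phlda3 and Trp53inp1 act on survival signalling and autophagy. Phlda3 (ENSMUSG00000041801.5, chr1:135766119-135769136, + strand) had 0.986 and 1.61 CPM in WTIEC colon (17 and 33 counts) and 9.41 and 3.51 CPM in DDX5ΔIEC colon (155 and 70 counts). Both DDX5ΔIEC libraries were high but unequal: 6.46 ± 4.18 CPM against 1.30 ± 0.444 CPM in WTIEC (SD, n = 2). The log2 fold change of 2.14 (SE 0.54) was 1.41 without DDX5ΔIEC replicate 1 and 2.82 without replicate 2, and its adjusted p was 0.312 by edgeR's quasi-likelihood test. Trp53inp1 (ENSMUSG00000028211.11, chr4:11156431-11174379, + strand) had 92.7 and 82.4 CPM in WTIEC colon and 129 and 131 CPM in DDX5ΔIEC colon. Its DDX5ΔIEC replicates were nearly equal and both lay above WTIEC, with a log2 fold change of 0.57 (SE 0.09; 0.47 and 0.66 in the pairs) and an adjusted p of 0.238 by edgeR's quasi-likelihood test.

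Some genes were also set within each library against Mdm2, a target whose own level overlapped between the genotypes, which needs no scaling. The genes given here were higher in CPM, so the ratios describe that difference again and are no separate test of it. Ccng1 had 2.25 and 2.29 counts per Mdm2 count in WTIEC colon and 3.46 and 3.49 in DDX5ΔIEC colon. For Trp53inp1 the ratios were 1.67 and 1.56 in WTIEC and 2.37 and 2.75 in DDX5ΔIEC. For Bax they were 0.242 and 0.238 in WTIEC and 0.347 and 0.343 in DDX5ΔIEC. In all 3 ratios, both DDX5ΔIEC colon libraries exceeded both WTIEC libraries.

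**Figure D2:**
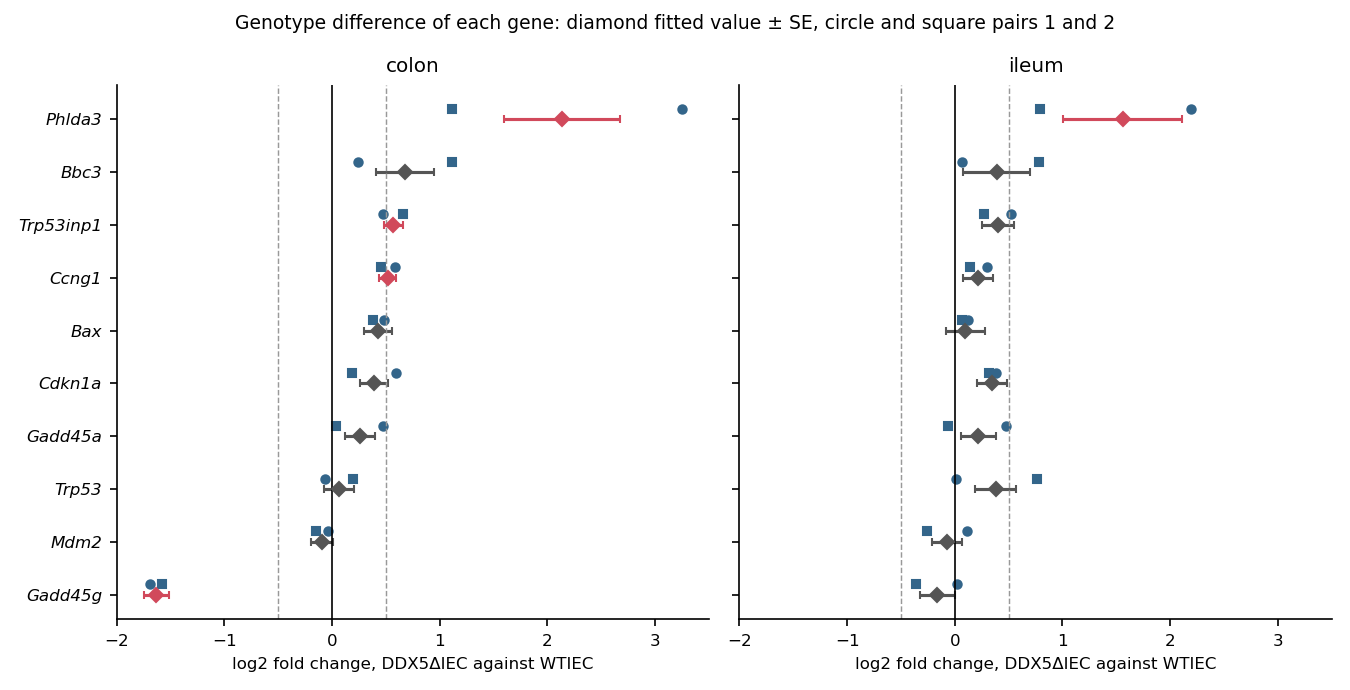
Log2 fold change of DDX5ΔIEC against WTIEC for the 10 genes in the colon and the ileum; diamonds with bars are the fitted value ± SE, circles and squares the pairs of replicates 1 and 2, dashed lines mark 0.5 in either direction, and red marks genes past the study's criterion. Gadd45g is at −1.63 in colon and −0.16 in ileum. Phlda3 is positive in both.

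What the genes share upstream of their starts was read from RefSeq promoter sequences (mouse build GRCm38.p6), which hold 9 of the 10 genes in 12 windows of 250 bases; Trp53inp1 is missing. The consensus decamer of p53 was searched by name on both strands, at full match. It occurred in 6 of the 9 genes (Bax, Ccng1, Cdkn1a, Gadd45a, Mdm2 and Trp53) and in 6 of their 12 windows, against 7.13% of all 32851 windows in the table. In the 5 lists of other p53 targets described further on, 5 of 42 matched genes held it. In the Cdkn1a window printed below it occurred 2 times with 12 bases between the copies, and 0.259% of all windows hold 2 or more. Cdkn1a has another window, before a start farther downstream (chr17:29093519-29093768, + strand), which held 0 copies. Phlda3, Bbc3 and Gadd45g had none in these windows, though Phlda3 and Bbc3 were higher in both DDX5ΔIEC colon libraries. Mdm2, Gadd45a and Trp53 hold the decamer and overlapped between the genotypes in the colon. Whether the decamer goes with the level was not tested. The windows of Cdkn1a (chr17:29090729-29090978, + strand), Ccng1 (chr11:40755287-40755536, − strand) and Bax (chr7:45466899-45467148, − strand) are printed because these genes were higher in both DDX5ΔIEC colon libraries and hold the decamer, and that of Gadd45g (chr13:51846425-51846674, + strand) because it was the gene with the lower level. Each is written 5′ to 3′ up to the last base before the RefSeq start, which for Ccng1 lies inside the gene's GENCODE span given above, with the decamers in capitals:
Cdkn1a: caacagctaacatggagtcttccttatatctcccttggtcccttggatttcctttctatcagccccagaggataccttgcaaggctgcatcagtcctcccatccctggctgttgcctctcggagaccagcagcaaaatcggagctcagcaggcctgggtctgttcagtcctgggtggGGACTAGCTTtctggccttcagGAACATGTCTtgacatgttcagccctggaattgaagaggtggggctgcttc
Ccng1: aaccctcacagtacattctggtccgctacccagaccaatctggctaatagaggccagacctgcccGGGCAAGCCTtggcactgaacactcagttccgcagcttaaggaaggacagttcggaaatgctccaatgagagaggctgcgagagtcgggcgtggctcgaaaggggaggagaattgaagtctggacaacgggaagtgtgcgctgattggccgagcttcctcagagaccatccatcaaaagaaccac
Bax: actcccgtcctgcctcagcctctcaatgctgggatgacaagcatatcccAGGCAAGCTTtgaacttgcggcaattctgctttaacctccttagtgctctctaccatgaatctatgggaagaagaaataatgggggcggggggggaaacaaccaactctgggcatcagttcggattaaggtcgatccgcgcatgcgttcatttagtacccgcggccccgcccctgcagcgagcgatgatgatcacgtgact
Gadd45g: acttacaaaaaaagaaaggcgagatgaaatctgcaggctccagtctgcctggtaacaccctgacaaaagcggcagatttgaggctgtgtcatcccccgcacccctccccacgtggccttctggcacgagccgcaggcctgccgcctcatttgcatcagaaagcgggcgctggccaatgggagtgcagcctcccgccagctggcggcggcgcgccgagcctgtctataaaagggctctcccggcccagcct

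In the printed Cdkn1a window the decamers begin 73 and 51 bases before the RefSeq start that follows it. In Ccng1 the decamer begins 185 bases and in Bax 201 bases before the start. Of the basal promoter motifs, the letters of the TATA box (TATAAA) were found in Gadd45g. In Trp53 they occurred only on the opposite strand, at the window end farthest from the start. On either strand, 12.4% of all windows held them. GGGCGG, the GC box, was found in 8 of the 12 windows and in 32.7% of all windows, and the CCAAT box in 6 of the 12 and in 33.8%. These motifs were searched on both strands and can share end letters with the decamer. A match describes the letters of a window, not binding. The genes themselves lie on 8 chromosomes, with Trp53 and Ccng1 both on chromosome 11 and Bax and Bbc3 both on chromosome 7.

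Markers of other cells differed between the genotypes in the same colon libraries. The 3 tuft cell genes, of which Dclk1 was the most abundant, summed to 68.2 and 76.1 CPM in WTIEC and 24.2 and 50.7 CPM in DDX5ΔIEC, and 3 of 3 were lower by the study's criterion (Dclk1 −1.20, Trpm5 −1.05 and Avil −0.56, which were −0.55, −0.60 and −0.24 without DDX5ΔIEC replicate 1 and −1.94, −1.56 and −0.90 without replicate 2). The 4 goblet cell genes, led by Fcgbp, summed to 48370 and 54820 CPM in WTIEC and 27530 and 43170 CPM in DDX5ΔIEC, with Fcgbp at a log2 fold change of −0.61 and Clca1 at −1.57 past the criterion, and Muc2 at 0.09 and Agr2 at −0.22 with overlapping groups. The 5 T cell genes, led by Ptprc, summed to 33.65 and 27.45 CPM in WTIEC and 6.80 and 15.5 CPM in DDX5ΔIEC, and 5 of 5 were negative, with Ptprc (−1.43; −0.96 to −1.97 with a library left out) and Cd8a (−2.22; −1.61 to −3.42, on 5 to 80 counts) past the criterion. The sums of these 3 lists were low in both DDX5ΔIEC libraries and lowest in replicate 1, none of their genes was at 0, and their part in the lower Gadd45g level was not tested. Of the 4 Paneth cell genes, Itln1 was lower by the criterion (−1.65; −1.01 to −2.35 with a library left out) and made up most of their sum, while Lyz1 (0.21) and Mmp7 (−0.29) overlapped between the genotypes and Defa24 was not tested. The 4 myeloid genes, led by Cd68, summed to 4.18 and 3.18 CPM in WTIEC and 1.88 and 2.51 CPM in DDX5ΔIEC, and the 6 stroma and muscle genes, led by Col3a1, to 12.5 and 14.1 CPM and 11.5 and 7.07 CPM, with 0 past the criterion in either list. The 4 plasma and B cell genes, led by Igha, went the other way. Their sums were 1.86 and 1.22 CPM in WTIEC and 2.19 and 7.77 CPM in DDX5ΔIEC. Igha (1.61) and Jchain (1.6) were higher in both DDX5ΔIEC libraries, and 0 passed the criterion. Igha is not annotated as protein-coding. Crypt stem cell genes, led by Smoc2, summed to 40.15 and 41.19 CPM in WTIEC and 41.72 and 43.56 CPM in DDX5ΔIEC, with 0 past the criterion. The sums of the ileal enterocyte list and of the endothelial and red cell list overlapped between the genotypes, with Fabp6 (1.09) and Pecam1 (0.88; 0.36 to 1.47 with a library left out) past the criterion as higher and their most abundant genes, Slc10a2 (−0.59) and Hbb-bs (−0.28), overlapping. Of the 4 colonocyte genes, Aqp8 (0.79) and Slc26a3 (0.70; 0.35 without DDX5ΔIEC replicate 1) passed the criterion as higher, while Car1 (0.01) and Aqp4 (−0.11) overlapped between the genotypes. The 7 general epithelial genes, led by Krt8, had log2 fold changes of 0.05 to 0.31, all positive, with sums of 11840 and 11620 CPM in WTIEC and 13180 and 12270 CPM in DDX5ΔIEC. The part of either list in the higher p53 targets was not tested, and in bulk RNA fewer cells of a type and less RNA per cell cannot be told apart.

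In the ileum, Phlda3 alone of the 10 genes passed the study's criterion with the p of edgeR's quasi-likelihood test, and 0 passed with DESeq2. Phlda3 was at 2.95 times its WTIEC level on 8 to 18 counts per library, Trp53inp1 at 1.32, Trp53 at 1.31, Bbc3 at 1.31 and Cdkn1a at 1.28 times theirs. Gadd45g, low in the DDX5ΔIEC colon, overlapped between the genotypes. As in the colon, 8 of the 10 genes had a positive log2 fold change, with a median of 0.29 beside −0.00 over all 14068 genes tested, of which 49.1% were positive.

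By the study's criterion 1 of the 10 genes was higher in the ileum (3.78% of 12064 protein-coding genes were) and 0 were lower (2.83% were). The count of 1 was 0 with DESeq2, with all 8 libraries in 1 fit and without WTIEC replicate 1, and 2 without DDX5ΔIEC replicate 2. By the criterion 797 ileum genes passed with edgeR and 362 with DESeq2. edgeR's quasi-likelihood test called 0 of the 10 genes after adjustment, beside 0.697% of all genes. At an unadjusted p under 0.05, 3 of the 10 passed that test (Cdkn1a, Trp53inp1 and Phlda3) beside 1736 of all 14068 genes, and DESeq2 called 0 of the 10 after adjustment but gave no adjusted p for Phlda3. Both DDX5ΔIEC libraries were above both WTIEC libraries for 6 of the 10 genes (19.0% of all genes tested) and below them for 0 (20.5% of all genes). The 98 genes that edgeR called in the ileum became 23 without DDX5ΔIEC replicate 2 and 20 without the 3 repeat-like genes, with 0 of the 10 genes called in either case.

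Cdkn1a showed the most even separation in the ileum. It had 85.9 and 84.9 CPM in WTIEC and 112 and 106 CPM in DDX5ΔIEC, at 85.4 ± 0.715 against 109 ± 4.45 CPM (SD, n = 2). The DDX5ΔIEC libraries were both high, with a log2 fold change of 0.35 (SE 0.14; 0.31 to 0.40 with a library left out) and an adjusted p of 0.321 by edgeR's quasi-likelihood test. Trp53inp1 had 24.5 and 31.8 CPM in WTIEC ileum and 35.3 and 38.5 CPM in DDX5ΔIEC ileum. Its groups did not overlap, and its log2 fold change of 0.40 (SE 0.15) was 0.21 to 0.58 with each library left out (0.34 without DDX5ΔIEC replicate 2, and lowest without WTIEC replicate 1). Ccng1 had 86.5 and 93.5 CPM in WTIEC and 106 and 103 CPM in DDX5ΔIEC. That is a separation of the groups at a small log2 fold change of 0.22 (SE 0.14).

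Phlda3 was near the limit of detection in the ileum. It had 0.334 and 0.504 CPM in WTIEC (8 and 8 counts) and 1.53 and 0.875 CPM in DDX5ΔIEC (18 and 9 counts). Both DDX5ΔIEC libraries lay above WTIEC, and the log2 fold change of 1.56 (SE 0.55) was 1.90 without DDX5ΔIEC replicate 2 and 1.09 without DDX5ΔIEC replicate 1. Gadd45g had 23.3 and 27.4 CPM in WTIEC ileum and 23.7 and 21.4 CPM in DDX5ΔIEC ileum. Its DDX5ΔIEC replicate 1 lay between the WTIEC libraries, and its log2 fold change was −0.16 (SE 0.16; −0.05 to −0.28 with a library left out).

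Trp53 in the ileum rested on the library that stood apart. Its RNA was 19.4 and 17.4 CPM in WTIEC and 19.5 and 29.5 CPM in DDX5ΔIEC. Only DDX5ΔIEC replicate 2 was clearly high, and the log2 fold change of 0.38 (SE 0.19) was 0.09 without it. Bbc3 had 3.26 and 2.20 CPM in WTIEC and 3.40 and 3.79 CPM in DDX5ΔIEC, again with little distance in the first pair (log2 fold change 0.39; 0.30 without DDX5ΔIEC replicate 2, 0.14 without WTIEC replicate 2 and 0.70 without WTIEC replicate 1). Mdm2, Bax and Gadd45a overlapped between the genotypes in the ileum, with log2 fold changes of −0.07, 0.10 and 0.22. These turned sign when single libraries were left out, in fits that also drop the replicate block. In the pairs Bax was at 0.12 and 0.07, while Mdm2 (0.11 and −0.26) and Gadd45a (0.48 and −0.06) differed in sign.

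Marker genes of other cells also differed in the ileum. Tuft cell genes, again led by Dclk1, summed to 270 and 408 CPM in WTIEC and 178 and 222 CPM in DDX5ΔIEC, and 3 of 3 were lower by the study's criterion (with Trpm5 at −0.67, and −0.33 to −0.99 with a library left out, and Avil at −0.69). The 3 enteroendocrine genes, led by Chgb, summed to 35.7 and 35.6 CPM in WTIEC and 66.7 and 54.4 CPM in DDX5ΔIEC, and 2 of 3 (Chga and Chgb) were higher by the criterion. Of the 4 colonocyte genes, Aqp4 (−0.86) and Car1 (−2.16 on 3 to 90 counts; −1.24 to −3.15 with a library left out) were lower by the criterion. Slc26a3 (−0.10), the most abundant of them, overlapped between the genotypes, as did the sum of the list. Aqp8, on 1 to 15 counts, was not tested. The sums of the myeloid and ileal enterocyte lists overlapped between the genotypes, with Lyz2 (2.18, at 2.55 CPM or less; 1.48 to 3.57 with a library left out) and Alpi (0.56; 0.15 without DDX5ΔIEC replicate 1) higher by the criterion and Itgam (−0.33) and Fabp6 (0.12) overlapping. Dclk1 was at −0.83, and at −0.50 to −1.13 with a library left out. Among all these markers, edgeR's quasi-likelihood test called Dclk1, Chga (0.92) and Aqp4 at adjusted p-values of 0.0274, 0.0303 and 0.0426. Over the alternatives these ranged from 0.000226, 0.000241 and 0.000302 up to 1, 1 and 0.981. The 4 goblet and 7 epithelial genes had 0 past the criterion. The goblet sum was higher in both DDX5ΔIEC libraries (22830 and 19580 CPM in WTIEC, 26550 and 23630 CPM in DDX5ΔIEC). Of its genes, Muc2 (0.15), Fcgbp (0.50) and Clca1 (0.10) overlapped, and Agr2 (−0.13) was lower in both DDX5ΔIEC libraries. The T cell sum was lower in both (50.66 and 66.16 CPM against 48.63 and 43.73 CPM), with Ptprc at −0.41 and the other 3 tested genes overlapping. The Paneth sum overlapped, with Mmp7 (0.44) and Defa24 (0.39) higher in both DDX5ΔIEC libraries and Lyz1 (−0.40) and Itln1 (0.16) overlapping. In the T cell and Paneth lists 0 passed the criterion. The part of these lists in the levels of the p53 genes was not tested.

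The tissues were then compared within each genotype, in a fit that takes the colon and ileum libraries of a mouse as a block. Between ileum and colon of WTIEC mice, Cdkn1a, Gadd45a and Trp53 were higher in the ileum at 1.64, 1.43 and 1.37 times the colon level, and Trp53inp1, Phlda3 and Bbc3 were lower at 0.390, 0.400 and 0.607 times. So 3 of the 10 genes were called higher (19.2% of 16109 genes were) and 3 lower (18.2% were) by edgeR's quasi-likelihood test. In this fit Trp53inp1 had the largest difference at −1.36 (SE 0.14) on the log2 scale, close to Phlda3 at −1.32 (SE 0.38). Without the mouse block Phlda3 had the larger one (−1.39 against −1.35). The adjusted p of Trp53inp1 was 0.000504 by edgeR's quasi-likelihood test, and that of Cdkn1a at 0.72 (SE 0.11) was 0.00261. Ccng1, Mdm2, Bax and Gadd45g did not pass, with log2 differences of −0.16 to 0.20. The count of 6 called genes was 2 without the mouse block, 3 with DESeq2, and 1 when either WTIEC colon library or either WTIEC ileum library was left out. The median over the 10 genes was 0.01 beside −0.02 over all genes.

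In DDX5ΔIEC mice, 4 of the 10 genes were called higher in the ileum (19.2% of all genes were) and 4 lower (18.2% were). Gadd45g joined the higher ones at 2.96 times the colon level, a log2 difference of 1.56 (SE 0.14) with an adjusted p of 0.000242 by edgeR's quasi-likelihood test. Trp53 (0.76), Cdkn1a (0.67) and Gadd45a (0.46) were the other genes called higher, by log2 difference. Phlda3 (−2.10), Trp53inp1 (−1.54), Bbc3 (−0.97) and Ccng1 (−0.47) were called lower, and Mdm2 (0.20) and Bax (−0.43) were not called. DDX5ΔIEC and WTIEC tissue differences come from separate mice, and whether they differ is the interaction tested next.

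The interaction asks whether the genotype difference itself differs between ileum and colon. Gadd45g had the largest value of the 10 genes, 1.46 on the log2 scale (SE 0.18), since it was lower in both DDX5ΔIEC libraries of the colon and overlapped in the ileum. Its adjusted p was 0.151 by edgeR's quasi-likelihood test, so the difference between the tissues was not called. It was called by DESeq2 (adjusted p of 0.00413) and by edgeR without a filter on low counts (2.39e-08), within a range of 2.39e-08 to 0.847 over the alternatives. The other 9 genes had values between −0.78 (Phlda3, SE 0.52) and 0.31 (Trp53, SE 0.19). With a library left out, Phlda3 ran from −0.4 to −1.0 and Trp53 from 0.18 to 0.43. In the main fit 0 of the 10 genes were called by edgeR, beside 0.00621% of all genes tested. At an unadjusted p under 0.05, 1030 genes passed the edgeR test, 1 of the 10 genes (Gadd45g) among them, and DESeq2 called 35 genes.

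Between genes, levels were compared per kilobase of exon, as CPM per kb scaled over all 8 libraries. In WTIEC colon, Ccng1 was the most abundant at 31.5 ± 0.912 CPM per kb (SD, n = 2), followed by Gadd45g at 22.1 ± 0.50 and Cdkn1a at 16.2 ± 0.0794. Below them came Gadd45a (14.6), Trp53inp1 (12.2), Mdm2 (9.61), Bax (7.44), Trp53 (3.66), Bbc3 (2.36) and Phlda3 (0.753 CPM per kb). The libraries of each gene lay apart from those of its neighbour in this order, and the range from highest to lowest was 41.9-fold. In DDX5ΔIEC colon, Ccng1 was again first at 45.7 CPM per kb, Cdkn1a stood second at 21.6, and Gadd45g was at rank 7 with 7.16 ± 0.269 CPM per kb. The libraries of Trp53inp1 and Gadd45a, of Bax and Mdm2, of Trp53 and Phlda3 and of Phlda3 and Bbc3 overlapped as neighbours there.

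The ileum put Cdkn1a nearer the top. In WTIEC ileum, Ccng1 had 28.3 ± 1.51 and Cdkn1a 26.6 ± 0.285 CPM per kb (SD, n = 2), with Gadd45g at 23.9 and Gadd45a at 21. Mdm2 (11), Bax (7.07), Trp53 (5.02), Trp53inp1 (4.80), Bbc3 (1.42) and Phlda3 (0.297 CPM per kb) followed, and Trp53 and Trp53inp1 were the neighbours that overlapped. In DDX5ΔIEC ileum, Cdkn1a (33.9 ± 1.39) and Ccng1 (32.9 ± 0.707 CPM per kb) overlapped at the top, and Phlda3 was again last at 0.851 CPM per kb. Gadd45a and Gadd45g, Bax and Trp53, and Trp53 and Trp53inp1 also overlapped as neighbours. Ccng1 or Cdkn1a thus led the order in each group, and of the cell death genes Bax held ranks 5 to 7 and Bbc3 ranks 9 and 10.

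**Figure D3:**
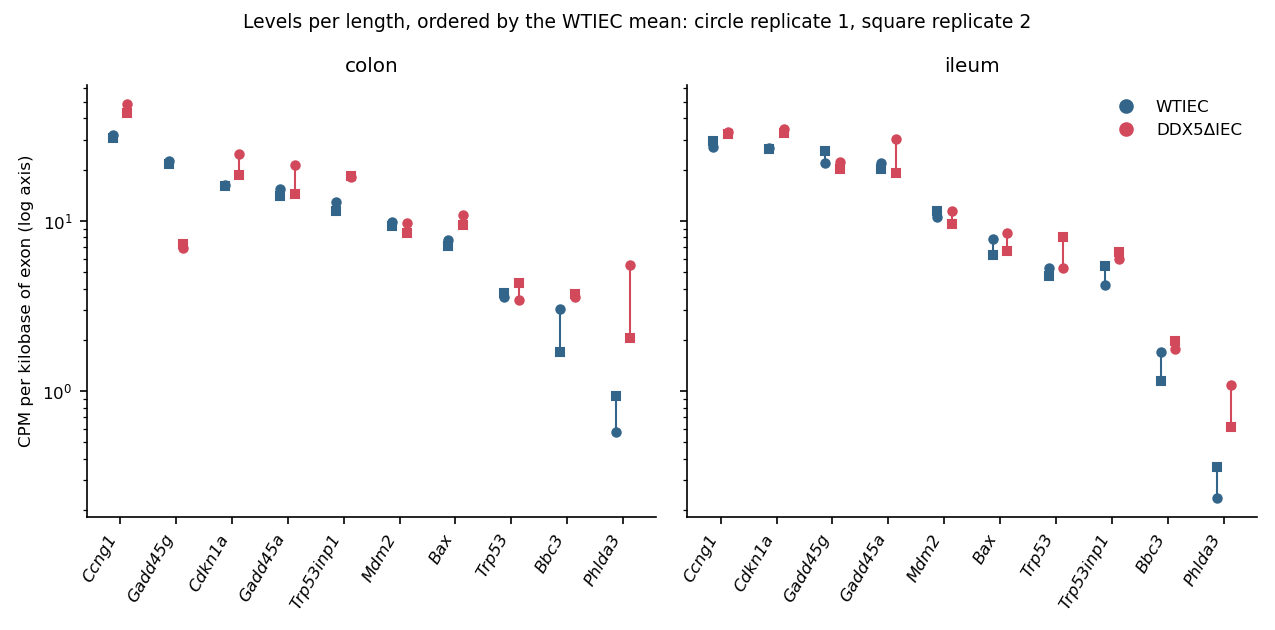
Level per kilobase of exon (CPM per kb, log axis) of the 10 genes in each group, ordered by the WTIEC mean; circles are replicate 1, squares replicate 2, blue WTIEC and red DDX5ΔIEC. Gadd45g is at 22.1 CPM per kb in WTIEC colon and 7.16 in DDX5ΔIEC colon, and Phlda3 is the lowest gene in 3 of the 4 groups.

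Other genes of the pathway were followed by role in 10 further lists with 121 genes. The lists were chosen with earlier results of these data known, so their counts beside all genes are a description and not a test. The 5 lists of other p53 targets together had 50 genes tested in the colon, of which 5 were higher and 0 lower by the study's criterion (2.64% and 4.01% of all protein-coding genes), with a median log2 fold change of 0.01 beside −0.00 over all genes. In the ileum 49 were tested, of which 4 were higher and 3 lower (3.78% and 2.83% of all), with a median of 0.02 beside −0.00. Their medians thus lay near those of all genes in both tissues, while single targets stood far out. After adjustment edgeR's quasi-likelihood test called 0 of them in either tissue, where 7 of the 50 in the colon and 9 of the 49 in the ileum had an unadjusted p under 0.05, beside 1836 of 15362 and 1736 of 14068 genes in all. DESeq2 called Eda2r and Ephx1 in the colon and 0 in the ileum, where it gave no adjusted p for Eda2r.

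**Figure D4:**
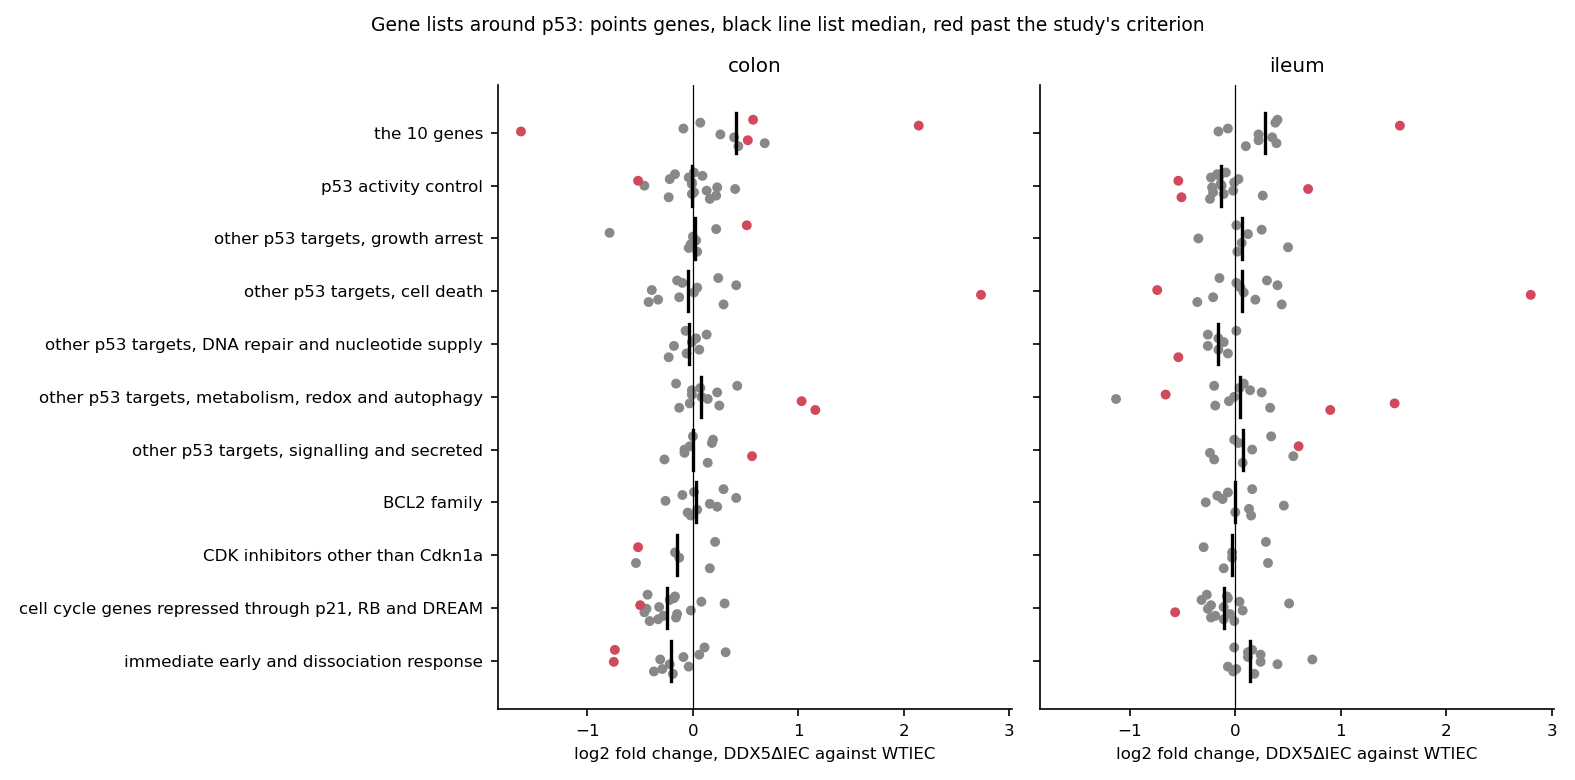
Log2 fold change of DDX5ΔIEC against WTIEC for every tested gene of the 10 genes and the 10 further lists, in the colon and the ileum; black bars are medians and red points passed the study's criterion. Most lists centre near 0, and Eda2r stands out at 2.73 in the colon and 2.80 in the ileum.

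Eda2r, of the cell death list, codes for a receptor of the TNF receptor family and was the target farthest from 0. Its colon RNA was 1.97 and 2.10 CPM in WTIEC and 15.8 and 11.7 CPM in DDX5ΔIEC (34 and 43 against 260 and 234 counts). In the ileum it was 0.167 and 0.315 CPM in WTIEC and 2.30 and 0.972 CPM in DDX5ΔIEC (4 and 5 against 27 and 10 counts). All DDX5ΔIEC libraries of a tissue were above its WTIEC libraries. The log2 fold change was 2.73 (SE 0.23) in the colon, with an adjusted p of 0.0866 by edgeR's quasi-likelihood test and 9.07e-08 by DESeq2, within a range of 3.84e-18 to 0.345 over the alternatives. In the ileum it was 2.80 (SE 0.61; 2.05 without DDX5ΔIEC replicate 1 and 3.29 without replicate 2), with an adjusted p of 0.0772 by edgeR's quasi-likelihood test. The median over all 12 cell death genes, Eda2r included, was −0.04 in colon and 0.07 in ileum. The death receptor gene Fas was lower by the criterion in the ileum at 10.1 and 9.63 CPM in WTIEC and 6.12 and 5.73 CPM in DDX5ΔIEC (log2 fold change −0.74).

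Ephx1, the microsomal epoxide hydrolase of the metabolism list, was also past the criterion in both tissues. It had 12.5 and 9.54 CPM in WTIEC colon and 24.8 and 20.0 CPM in DDX5ΔIEC colon. In the ileum it had 1.42 and 1.32 CPM in WTIEC and 4.25 and 3.60 CPM in DDX5ΔIEC. In each tissue both DDX5ΔIEC libraries were high, at log2 fold changes of 1.03 (SE 0.13) and 1.51 (SE 0.33). Of the 13 tested genes of that list, 2 in the colon (with the adenylate kinase gene Ak1 at 1.16) and 2 in the ileum were higher by the criterion. The other in the ileum was Aldh4a1 of proline breakdown, with 14.4 and 4.66 CPM in WTIEC and 34.9 and 5.54 CPM in DDX5ΔIEC. It was thus high in replicate 1 of both genotypes. Its log2 fold change of 0.90 (1.27 and 0.25 in the pairs) became −0.82 without DDX5ΔIEC replicate 1, in a fit that also drops the replicate block. The phosphatidate phosphatase gene Lpin1 was lower in the ileum at −0.66, and the medians of the list were 0.08 and 0.04.

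The remaining target lists held few such genes. Of the growth arrest targets, Zmat3, which codes for an RNA-binding zinc finger protein, was higher by the criterion in the colon (log2 fold change 0.51, and 0.33 to 0.69 with a library left out) and at 0.01 in the ileum, and 0 of 7 passed in the ileum, where the antiproliferative gene Btg2 was at 0.02 and Sfn, the gene of 14-3-3 sigma, at 0.25. Of the secreted and signalling targets, the stress cytokine gene Gdf15 passed in the colon (0.56, with overlapping groups, and 0.71 and 0.40 in the pairs). Its value was 0.13 without DDX5ΔIEC replicate 1, in a fit that also drops the replicate block. The small GTPase gene Rap2b passed in the ileum (0.60, and 0.38 to 0.85 with a library left out). DNA repair targets had 0 of 8 past the criterion in the colon, where Pcna, the clamp of DNA polymerase, was at −0.01. In the ileum the damage sensor gene Ddb2 was lower (−0.54, and −0.43 to −0.64 with a library left out). There 7 of the 8 repair genes were negative with a median of −0.16. By pair, 8 were negative for replicates 1 and 5 for replicates 2. Only 3 lay below WTIEC in both DDX5ΔIEC libraries, beside 20.5% of all genes.

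Among the genes that control p53 activity, Mdm4, the MDM2 relative that binds and inhibits p53, was lower by the criterion in both tissues. Its RNA was 143 and 142 CPM in WTIEC colon and 94.6 and 105 CPM in DDX5ΔIEC colon. In the ileum it was 99.6 and 106 CPM in WTIEC and 69.3 and 72.4 CPM in DDX5ΔIEC. The groups lay apart in each tissue by more than the replicates did, with log2 fold changes of −0.52 (SE 0.09; −0.45 to −0.59 with a library left out) and −0.54 (SE 0.14; −0.49 to −0.59 with a library left out) and adjusted p-values of 0.245 and 0.124 by edgeR's quasi-likelihood test. Ddx17, the paralog of Ddx5, had 297 and 321 CPM in WTIEC colon and 403 and 414 CPM in DDX5ΔIEC colon. Its ileum values were 224 and 255 CPM in WTIEC and 391 and 379 CPM in DDX5ΔIEC. Ddx17 was thus higher in all 4 DDX5ΔIEC libraries, at log2 fold changes of 0.40 (SE 0.08) in the colon, short of the criterion, and 0.69 (SE 0.16; 0.59 to 0.78 with a library left out) in the ileum. The damage kinase gene Atr was lower in the ileum (−0.51; −0.26 without DDX5ΔIEC replicate 1), and the medians of the 17 tested genes were −0.01 and −0.14.

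The cell cycle genes that p21 represses through RB and the DREAM complex were mostly negative, with 14 of 16 below 0 and a median of −0.25 in the colon and 13 of 16 and −0.11 in the ileum. The pairs differed in this: in the colon 15 of 16 were negative in the pair of replicates 1 and 9 in that of replicates 2, and in the ileum 15 and 8. The criterion passed 1 in each tissue, the centromere histone gene Cenpa in the colon (−0.50; −0.24 to −0.79 with a library left out) and the mitotic cyclin gene Ccnb2 in the ileum (−0.57; −0.47 to −0.68 in the same way), both lower, and in the colon the count was 9 without DDX5ΔIEC replicate 2 and 0 without DDX5ΔIEC replicate 1. In the colon, 6 of the 16 lay below WTIEC in both DDX5ΔIEC libraries, beside the 22.0% of all genes given above, and in the ileum 4 of the 16, beside 20.5%. Of the 6 other CDK inhibitor genes, Cdkn2d was lower in the colon (−0.52; −0.42 to −0.62 with a library left out), and 0 passed in the ileum, where Cdkn2b was at −0.03 and Cdkn1b at −0.11. The BCL2 family had 0 past the criterion of 10 tested in the colon, with the survival gene Mcl1 at 0.29 and the pore-forming Bak1 at −0.05, and 0 of 9 in the ileum, with 0.16 and −0.00.

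Immediate early genes mark the stress of taking a tissue apart. In the colon 9 of 12 were negative, and 2 were lower by the criterion: Myc (−0.74) and the heat shock gene Hspa1a (−0.75). Hspa1a had 18.0 and 139 CPM in WTIEC colon and 10.7 and 82.1 CPM in DDX5ΔIEC colon. It was thus high in replicate 2 of both genotypes, with groups that overlap. In the ileum 0 of 12 passed and 9 were positive, with Fos at −0.07 and Jun at 0.24. The part of this response in the levels of the p53 genes was not tested.

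Cdkn1a and Mdm2 were also compared with the course of every other gene over the 8 libraries, as a description. Among 13567 genes tested in both tissues, those most like Cdkn1a in log2 CPM were Fignl2 (Pearson r 0.990), Ppp1r1b (0.981) and Tfip11 (0.979). Those most like Mdm2 were Tes (0.976), Trnt1 (0.963) and Il13ra1 (0.956). Of the 10 genes, Gadd45a was the most like Cdkn1a (0.873), and Mdm2 ran against Trp53inp1 (−0.755). The 8 libraries come from 4 mice and 2 tissues, and how much of these values comes from tissue or genotype was not tested.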

How the data were processed

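RNAseq of IECs was taken from 8 libraries of 4 mice, grouped by the sample labels. The authors deposited raw counts per gene (uniquely mapped reads over exons, featureCounts) and a normalized signal (counts divided by a DESeq2 size factor of each library), together with other columns such as gene length. Raw counts were used here, with Python 3.11.15, pandas 2.3.3, matplotlib 3.10.9, R 4.3.3, edgeR 4.0.16 and DESeq2 1.42.0. Genes were kept by filterByExpr with a minimum count of 10, scaled by TMM and tested by edgeR's quasi-likelihood test, blocked by replicate number within a tissue and by mouse between tissues. P-values were adjusted by Benjamini-Hochberg over all genes tested. The study's DESeq2 fit held a harvest covariate, but which mice shared a harvest is not stated. The legends describe pairs of cohoused littermates without tying replicate numbers to them, so the pairs and the block by number are assumed. Deviations of same-numbered libraries correlated at 0.00559 in the colon and 0.240 in the ileum (checked across genes). Mouse numbers in the study's supplementary table tie the colon and ileum library of a replicate to the same mouse; their deviations correlated at 0.141 in WTIEC and 0.143 in DDX5ΔIEC. Named were Ddx5, the 10 genes, genes of each pathway list past a threshold or else its 2 most abundant, marker genes past a threshold, and the 3 genes most like Cdkn1a and Mdm2. The overlapping genes and the repeat-like genes were named after their values were seen. The members and lists were chosen with earlier results of these data known. The fits were tested on simulated data. Alternatives were no block, DESeq2, RLE, no filter and all 8 libraries in 1 fit. Others were a gene listed in 1 table counted as 0 in the other, and each library left out. Within a tissue, a fit with a library left out has no replicate block, since the block would leave no residual degrees of freedom. Leaving out 3 repeat-like genes was added after seeing the data. Total counts ranged from 11571061 to 22984283 per library, and replicates differed by more than counting noise. Exon overlaps come from the GENCODE annotation of GRCm38.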

Additional observations from a re-analysis of the deposited data

How the results depend on the processing

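Without the replicate block, by DESeq2 and with all 8 libraries in 1 fit, genes called after adjustment in the colon (0) became 5, 117 and 10, and members called (0) became 1, 1 and 1; with each library left out in turn they ran from 0 to 2506 and from 0 to 7. By the study's criterion, 834 colon genes became 463 by DESeq2 and 511 to 1969 with a library left out, and the 4 members 2 to 8. In the ileum, 98 called genes became 1 without the block, 39 by DESeq2, 423 without a filter, 20 without the 3 repeat-like genes, 7 with all 8 libraries and 1 to 23 with a library left out. By the criterion, 797 ileum genes became 362 by DESeq2 and 409 to 1312 with a library left out, and the 1 member 0 by DESeq2, 0 with all 8 libraries and 0 to 2 with a library left out. For ileum against colon in WTIEC, 6028 called genes became 2409 to 7603 with a library left out, and the 6 members 2 without the block, 3 by DESeq2 and 1 to 6 with a library left out. In DDX5ΔIEC these counts stayed within 1.5 times. For the interaction, the 1 called gene (Slc8a1, named after its values were seen) became 2 without the block, 35 by DESeq2, 387 without a filter and 0 to 330 with a library left out, and the 0 members 1 by DESeq2, 1 without a filter and 0 to 1 with a library left out. Within a tissue, leaving out a library also drops the replicate block, so those counts reflect both changes. The causes were not tested.

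Some log2 values changed sign with a library left out, which within a tissue also drops the replicate block. In the colon their ranges were Trp53 −0.10 to 0.23, Gadd45a −0.03 to 0.54 and Hspa1a −2.88 to 1.37. Ileum ranges were Mdm2 −0.20 to 0.06, Bax −0.09 to 0.26, Gadd45a −0.13 to 0.54 and Aldh4a1 −0.82 to 2.12. Of these, Gadd45a and Hspa1a (−0.74 and −0.75) in the colon and Bax and Aldh4a1 in the ileum had the same sign in both pairs. Between tissues of WTIEC they were Bax −0.18 to 0.01 and Gadd45g −0.03 to 0.24. For the interaction they were Cdkn1a −0.20 to 0.11, Mdm2 −0.09 to 0.11 (−0.01 without a filter) and Trp53inp1 −0.45 to 0.10. There Gadd45a ran from −0.11 to 0.01 and Ddx5 from −0.10 to 0.03.

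With 2 mice a group, each SE rests on few degrees of freedom, and a fit that leaves out a library takes the lone library to vary like the other genotype. Without a DDX5ΔIEC colon library, the spread comes from the WTIEC pair alone. Phlda3 in the ileum rests on 8 to 18 counts per library. Strand setting, sex and which mice shared a harvest are not stated. The crossed replicate block was not run.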
